A study of Homo sapiens with 6 samples.

Results

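The 53 genes described here encode the proteins that license origins of DNA replication, build and move the replication fork, and supply it with deoxynucleotides. They were chosen by gene symbol and found through the Ensembl identifiers of GENCODE release 29, with all 53 present among the 29908 genes of the expression table. RNA sequencing covered 6 samples of Hep3B, an established human hepatocellular carcinoma (HCC) cell line. In 3 of them (Hep3B-KD) a lentivirus expressed a short hairpin RNA directed at DAGLA, which encodes diacylglycerol lipase alpha, the enzyme that makes 2-AG. The other 3 (Hep3B-Con) received a control lentivirus, which the sample titles call shControl and the design text calls an empty vector. Both kinds of cells were infected at a multiplicity of infection of 5, the stable knockdown cells were selected with puromycin, and no other allele or agent is named for either group. The comparison therefore rests on 1 cell line and 1 hairpin, and the labels name 3 biological replicates per group without saying whether each was a separate infection. If they were not, the p-values measure only the spread between these samples.

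Before S phase, the origin recognition complex (ORC) together with CDC6 and CDT1 loads the ring-shaped MCM2-7 helicase onto DNA, a step called licensing that geminin blocks once replication has begun. CDC45 and the GINS complex then turn MCM2-7 into the active helicase, polymerase alpha-primase starts each strand, polymerases epsilon and delta extend the leading and lagging strands, and PCNA, RFC and RPA hold the fork together. Many of these genes are known targets of the E2F transcription factors, and the supply of deoxynucleotides through ribonucleotide reductase is a known limit on S phase in tumour cells, HCC included.

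The libraries held between 15861039 and 17572714 reads assigned to genes. DAGLA itself was at 9.42, 9.40 and 9.02 FPKM (reads scaled by exon length and by the depth of the library, so that levels of different genes can be compared) in Hep3B-Con and at 4.62, 4.46 and 4.78 FPKM in Hep3B-KD, a log2 fold change of -0.99 with an adjusted p of 5.25e-06. All 8 hepatocyte markers examined were expressed, at group means of 9.96 to 3315 FPKM. Their summed level was 3035 to 3097 FPKM in Hep3B-Con and 4411 to 4436 FPKM in Hep3B-KD, with 6 markers higher (ALB by 0.70 and APOB by 1.20 on the log2 scale) and AHSG and FGB lower in every Hep3B-KD library. Of 8 markers of blood, endothelial and stromal cells, 7 were in the table, with a summed level of 9.50 to 10.4 FPKM in Hep3B-Con and 5.87 to 6.22 FPKM in Hep3B-KD, most of it LUM. VWF, which defines endothelial cells, was at 0 in every Hep3B-KD library, and PTPRC, which defines blood cells, had a mean of 0.0112 FPKM there. PECAM1, also an endothelial marker, was higher in every Hep3B-KD library, with means of 0.197 and 0.339 FPKM. The part of these differences in the results was not tested.

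All 53 replication genes passed the filter of a mean of 0.5 FPKM, and they moved in both directions, mostly by small amounts. Of the 53, 19 rose, 21 fell and 13 did not pass the test (adjusted p under 0.05 from limma over 14221 genes). Among all genes tested 36.1% rose and 23.8% fell, and 59.9% were called in either direction, so a call by itself was common in these libraries. The 19 that rose are 35.8% of the 53 and the 21 that fell are 39.6%. The median log2 fold change of the 53 was -0.0076, against 0.11 for all genes tested. A fold of at least 2 was reached by 3 of the 53 and by 8.83% of all genes. MCM6 rose, beside 5.89% of all genes, and POLE4 and RRM2 fell, beside 2.94%. These counts are small, and a difference from all genes was not tested. The 3 Hep3B-KD values lay wholly above the Hep3B-Con values for 19 genes and wholly below them for 22, and overlapped for 12; groups without overlap made up 66.9% of all genes. At least 20% of the exon bases lie also in another annotated gene for 8 of the 53 (TYMS, POLA2, MCM2, GINS4, PRIM1, POLD4, TIPIN and RRM2), so their levels are less certain. RNA from a whole culture cannot tell a smaller share of cells in S phase from less mRNA per cell.

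**Figure D1:**
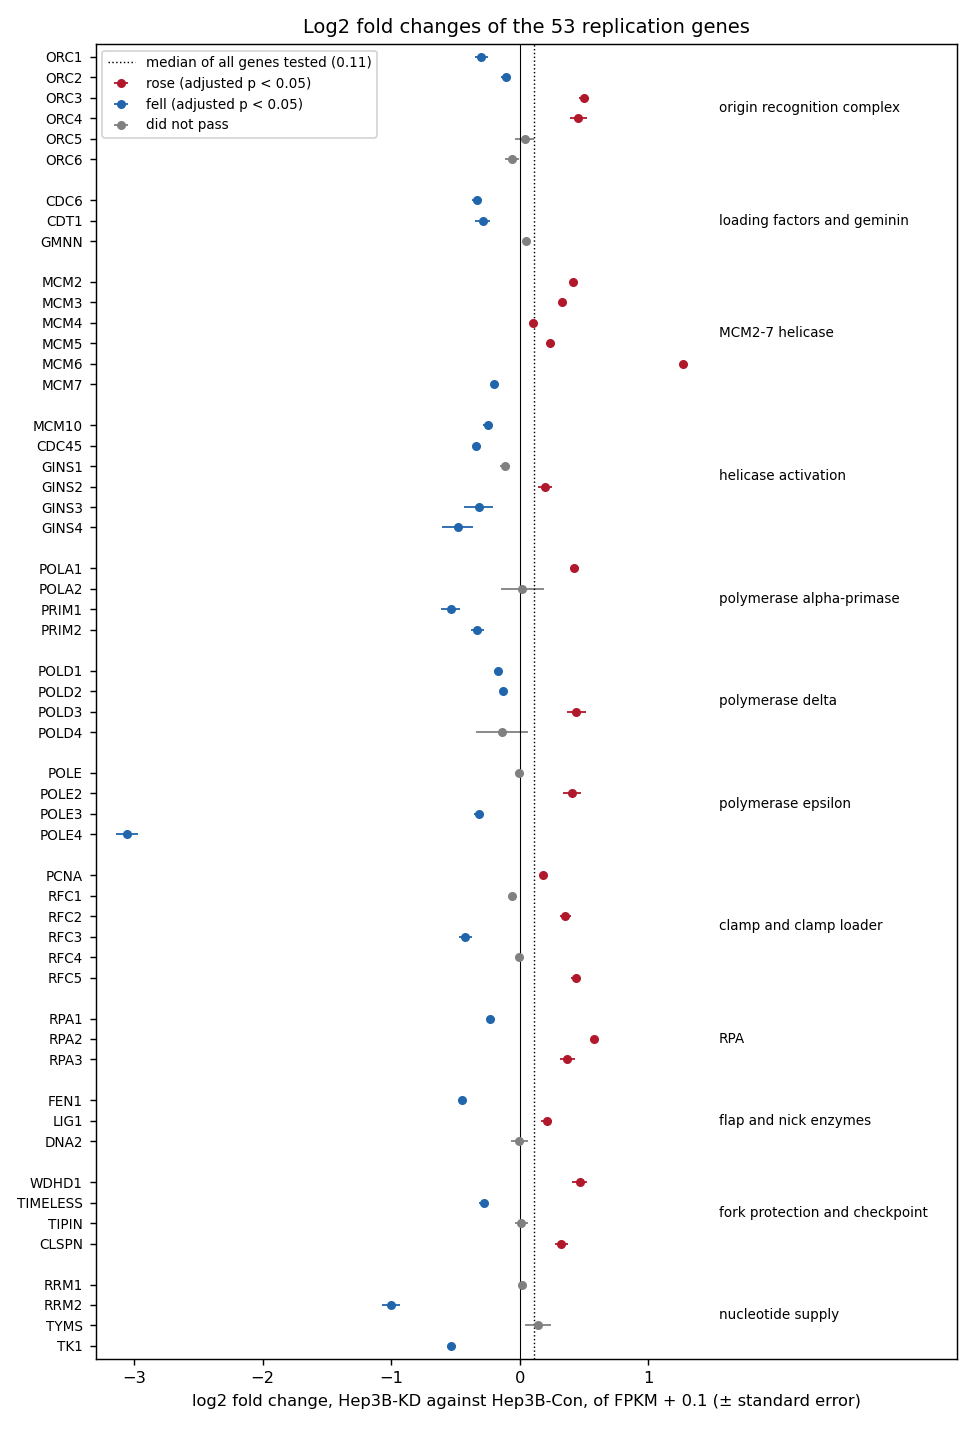
Log2 fold change of FPKM + 0.1 (x axis, Hep3B-KD against Hep3B-Con) for each of the 53 genes (rows, grouped by role), with bars for the standard error of the fit, red for genes that rose, blue for genes that fell and grey for the rest. MCM6 stands alone on the right at 1.27, POLE4 at -3.05 and RRM2 at -1.002 on the left. The other genes lie between -0.54 (PRIM1) and 0.58 (RPA2), on both sides of the dotted median of all genes at 0.11.

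The split by direction depends on how the libraries are scaled. Centring the libraries on the median log ratio brings the median of all genes from 0.11 to 0.0059, and then 16 of the 53 rose and 27 fell, beside 28.6% and 30.3% of all genes. Quantile normalization gave 21 and 19, beside 30% and 27.4%. MCM6, POLE4 and RRM2 kept their direction and their call under all 18 alternatives, but the count at a fold of at least 2 was 2 rather than 3 with the same FPKM sum, with a pseudocount of 1, and without Hep3B-Con replicate 2 or Hep3B-KD replicate 3, where RRM2 fell short of that fold.

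In the MCM2-7 helicase, 1 subunit rose far more than the rest. The helicase is a ring of 6 related subunits that are needed in equal number. MCM6 (ENSG00000076003, GRCh38 chromosome 2, 135839626 to 135876426, minus strand) had 31.1, 31.8 and 32.0 FPKM in Hep3B-Con and 75.9, 77.3 and 75.9 FPKM in Hep3B-KD. Every Hep3B-KD library was thus more than 2 times as high as every Hep3B-Con library, with a linear fold of 2.41 and a log2 fold change of 1.27 ± 0.0208 (SE, adjusted p = 1.25e-07). Between 2195 and 5187 reads per library lay behind these values, and no exon base of MCM6 is shared with another annotated gene. It ranked 533 from the top among the rises of all 14221 genes. MCM6 is among the genes that the study singled out from these same libraries, so its rise here is no independent evidence.

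The other 5 subunits changed far less. MCM2, which contacts histones at the fork, had 52.2, 55.1 and 53.3 FPKM in Hep3B-Con and 72.1, 69.0 and 73.2 FPKM in Hep3B-KD, a log2 fold change of 0.41 ± 0.0312 (SE, adjusted p = 4.59e-05). MCM3 rose by 0.33 (log2), from 137 ± 1.83 to 172 ± 4.80 FPKM (SD, n = 3 each), and MCM5 rose by 0.23, from 39.3 ± 0.465 to 46.2 ± 0.680 FPKM. MCM4 moved from 56.6 ± 0.884 to 61.0 ± 0.653 FPKM; its log2 fold change of 0.11 is that of the median gene, and its call was lost when the libraries were centred on the median (0.0027, adjusted p = 0.919) and its sign turned when they were centred within bins of exon length (-0.024). MCM7 fell by 0.20 (log2), from 130 ± 1.52 to 113 ± 1.74 FPKM, but had a log2 fold change of -0.014 with quantile normalization (adjusted p = 0.653). None of the 5 had overlapping groups, and neither did 66.9% of all genes tested. Of the exon bases of MCM2, 23.6% are shared with TPRA1 and an unnamed gene, and reads there may be split differently from those of the other subunits.

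Within the ring, MCM6 moved from the lowest place to the middle when measured in FPKM. The order and the shares below depend on the annotated exon lengths. These were 4118 bases for MCM6, 4902 for MCM2, 6973 for MCM4 and 7338 for MCM5. In reads not divided by length, MCM6 remained the lowest subunit in every Hep3B-KD library, at 4959, 5115 and 5187 reads. MCM5 came next there, at 5405, 5358 and 5695 reads. In Hep3B-Con the order from high to low was MCM3, MCM7, MCM4, MCM2, MCM5 and MCM6, and in Hep3B-KD it was MCM3, MCM7, MCM6, MCM2, MCM4 and MCM5. In both groups each subunit lay above the next in every library. MCM6 made up 6.99%, 7.01% and 7.19% of the summed MCM2-7 FPKM in Hep3B-Con and 14.1%, 14.4% and 13.9% in Hep3B-KD. On the scale of log2(FPKM + 0.1), its distance from the mean of the other 5 subunits was -1.22, -1.22 and -1.19 in Hep3B-Con and -0.13, -0.082 and -0.14 in Hep3B-KD. The distance shrank from -1.21 ± 0.021 to -0.12 ± 0.032 (SD, n = 3 each), a difference of 1.09 that exceeded the spread between libraries many times over (exact permutation test, 2-sided p = 0.1, which is the lowest p possible with 3 libraries per group). Since it is a ratio within each library, a common scaling factor does not move it. The study singled out MCM6 from these same libraries, so this difference and its p are no independent evidence either.

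**Figure D2:**
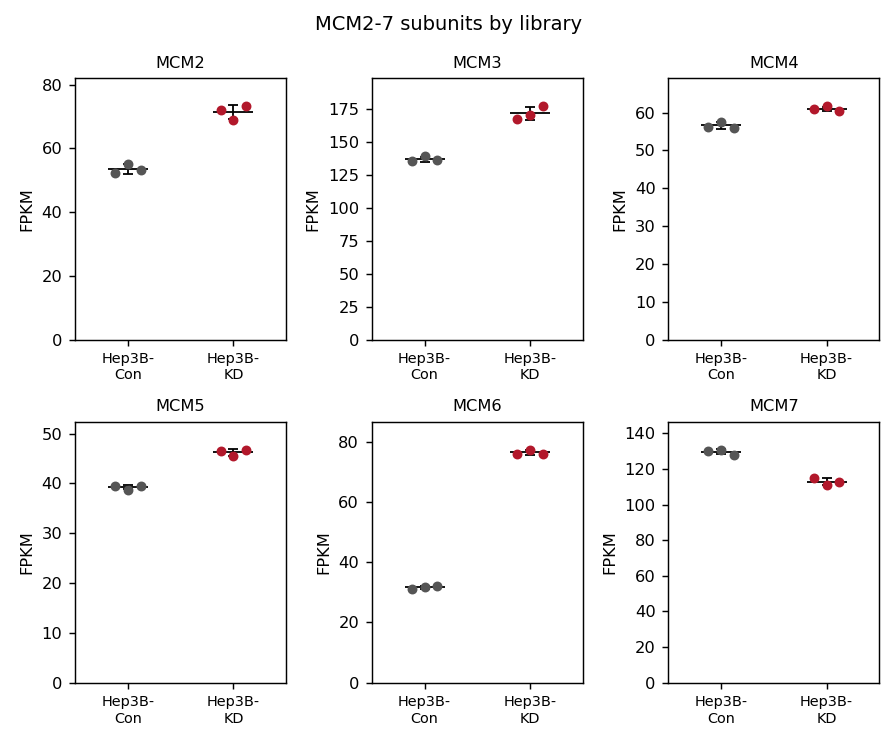
FPKM (y axis, from 0) of the 6 MCM2-7 subunits in the 3 Hep3B-Con (grey) and 3 Hep3B-KD (red) libraries; points are libraries, the horizontal mark is the mean and the bar is ± 1 SD. MCM6 goes from about 31.7 to 76.4 FPKM, while the largest change in proportion among the other subunits is the rise of MCM2 from 53.6 to 71.4 FPKM.

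The promoter of MCM6 was read from the RefSeq table (GRCh38.p14; 250 bases before to 50 bases after the start of each gene). It holds the 12 letters TTTGGCGCGAAA, in which 2 E2F motifs on opposite strands overlap, at 152 and again at 90 bases before the start. Both copies are shown on the strand of the gene with the 12 letters in capitals, since no other promoter in the table has the pair. These letters were picked after the MCM6 promoter had been read.
MCM6, copy at chr2:135876575-135876604, minus strand: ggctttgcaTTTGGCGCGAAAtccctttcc
MCM6, copy at chr2:135876513-135876542, minus strand: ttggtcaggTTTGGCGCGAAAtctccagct
Of 27305 promoters 4 hold the 12 letters at all, and MCM6 is the 1 with 2 copies. MCM2 has a similar overlapping pair of other letters in its promoter, in a single copy. A match of letters is not a measurement of binding.

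Promoters with the common E2F letters were frequent among the replication genes as a whole. The motif was searched as TTTCCCGC, TTTGGCGC, TTTCGCGC or TTTGCCGC on both strands, where 2 motifs may overlap. Of the 53 genes, 46 had a promoter in the table; MCM4, MCM5, GINS4, POLD3, RPA2, RPA3 and DNA2 did not. The motif stood in 20 of the 46 (43.5%), against 3.33% of all 27305 promoters and 5.53% of the promoters of expressed genes. It stood in 6 of 46 promoters (13.0%) of a list of other replication genes and in 2 of 20 (10%) of a list of mitotic genes. The CHR element TTTGAA, known from mitotic genes, was in 1 of the 46 (2.17%), in 13 of 20 mitotic promoters (65%) and in 15.4% of all promoters. The CCAAT box CCAAT was in 27 of the 46 (58.7%), against 35.7% of all. Windows of 3 genes whose levels differ in direction show the motif in capitals, on the strand of the gene; in MCM2 the capitals are 2 overlapping motifs.
MCM2 (rose), chr3:127598402-127598431: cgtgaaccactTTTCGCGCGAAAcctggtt
PCNA (rose), chr20:5126663-5126692: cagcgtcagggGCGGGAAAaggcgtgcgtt
RFC3 (fell), chr13:33818083-33818112: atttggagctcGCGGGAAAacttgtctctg
Of the 20 genes with the motif, 10 rose and 6 fell, with a median log2 fold change of 0.16. Of the 26 without it, 4 rose and 14 fell, with a median of -0.13. Centring on the median log ratio gave 8 and 8 with a median of 0.061 for the genes with the motif, and 4 and 18 with a median of -0.24 for those without. Of all genes tested, 36.1% rose and 23.8% fell without this centring, and 28.6% and 30.3% with it. Quantile normalization gave medians of 0.081 and -0.12 for the genes with and without the motif. The difference between the sets is a description and was not tested. The same split was not made for all expressed genes.

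Upstream of the helicase, the licensing genes went both ways. Of the 6 ORC subunits, which mark origins, ORC3 and ORC4 rose and ORC1 and ORC2 fell. ORC3 had 7.003, 6.909 and 6.91 FPKM in Hep3B-Con and 9.76, 10.1 and 9.67 FPKM in Hep3B-KD (log2 fold change 0.50 ± 0.0352 SE, adjusted p = 3.47e-05). ORC4 rose by 0.46 (log2), from 5.22 ± 0.369 to 7.20 ± 0.420 FPKM. ORC1, the subunit whose level follows the cell cycle, fell by 0.30 (log2), from 10.4 ± 0.378 to 8.46 ± 0.463 FPKM (adjusted p = 0.00234). ORC2 had a log2 fold change of -0.11 with an adjusted p of 0.0483, and lost its call in 11 of the 18 alternatives. ORC5 (0.038) and ORC6 (-0.062) did not pass.

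Both factors that bring MCM2-7 to ORC fell. CDC6 had 29.2, 31.4 and 31.4 FPKM in Hep3B-Con and 25.0, 23.7 and 24.4 FPKM in Hep3B-KD, without overlap, a log2 fold change of -0.33 ± 0.0376 (SE, adjusted p = 0.000311). CDT1 had 20.03, 20.13 and 19.8 FPKM in Hep3B-Con and 16.4, 15.1 and 17.6 FPKM in Hep3B-KD, a log2 fold change of -0.29 ± 0.0562 (SE, adjusted p = 0.00404). GMNN, the gene of the CDT1 inhibitor geminin, was at 49.5 ± 1.30 and 51.3 ± 1.002 FPKM (SD, n = 3 each), with overlapping groups and an adjusted p of 0.156; with quantile normalization its log2 fold change was 0.17 (adjusted p = 0.00284) and with median centring -0.053. MCM6 thus rose in libraries in which the mRNAs of both of its loading factors were lower.

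**Figure D3:**
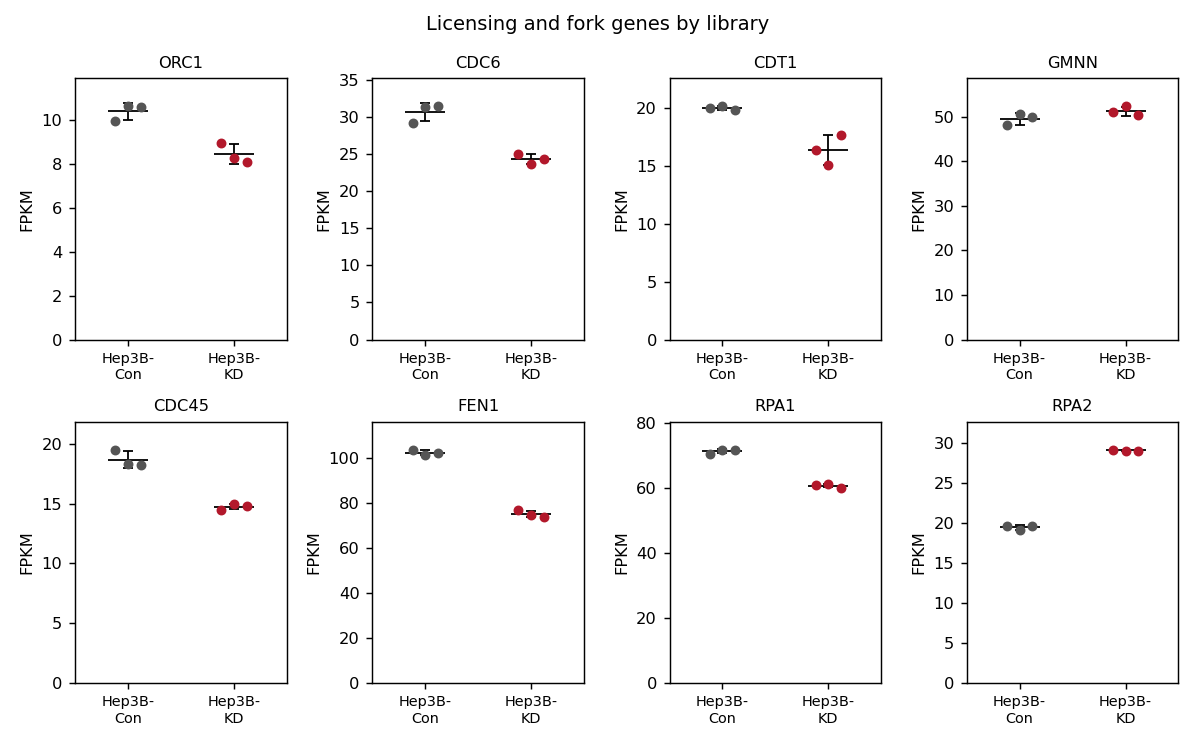
FPKM (y axis, from 0) of 8 licensing and fork genes in the 3 Hep3B-Con (grey) and 3 Hep3B-KD (red) libraries, with the mean and ± 1 SD. ORC1, CDC6, CDT1, CDC45, FEN1 and RPA1 are lower in every Hep3B-KD library, RPA2 is higher in every one, and GMNN overlaps.

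Most genes of helicase activation were lower. CDC45, which completes the active helicase with MCM2-7 and GINS, had 19.5, 18.3 and 18.2 FPKM in Hep3B-Con and 14.5, 15.0 and 14.8 FPKM in Hep3B-KD (log2 fold change -0.34 ± 0.0362 SE, adjusted p = 0.000237). MCM10, which helps the helicase to open DNA, fell by 0.25 (log2), from 9.18 ± 0.276 to 7.70 ± 0.143 FPKM. Of the 4 subunits of GINS, GINS4 fell by 0.48, from 3.45 ± 0.435 to 2.44 ± 0.291 FPKM, at 194 to 376 reads per library and with 23.6% of its exon bases in other genes. GINS3 had a log2 fold change of -0.32 with overlapping groups and an adjusted p of 0.0487, which was lost in 10 of 18 alternatives. GINS1 had -0.11 (adjusted p = 0.0511) and passed in 4 of them. GINS2 went the other way at 0.19 (adjusted p = 0.0206), a call lost in 5 alternatives, among them without Hep3B-Con replicate 2 (adjusted p = 0.0654), Hep3B-KD replicate 1 (0.0633) or Hep3B-KD replicate 3 (0.0594). GINS3 and ORC2 likewise lost their calls on leaving out most single libraries.

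Polymerase alpha-primase, which lays down the RNA-DNA primers, split by subunit. POLA1, the catalytic subunit, had 6.03, 6.14 and 6.10 FPKM in Hep3B-Con and 8.42, 8.09 and 8.12 FPKM in Hep3B-KD, a log2 fold change of 0.43 ± 0.0366 (SE, adjusted p = 8.48e-05). Both primase subunits were lower. PRIM1, which makes the RNA, fell by 0.54 (log2), from 4.61 ± 0.308 to 3.14 ± 0.185 FPKM at 119 to 210 reads per library and with 21.6% of its exon bases shared with NACA and 2 other genes, and PRIM2 fell by 0.33, from 8.95 ± 0.489 to 7.08 ± 0.201 FPKM. POLA2 overlapped between the groups at 1.15 FPKM in both, with 35.1% of its exon bases shared with another gene.

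In polymerase delta, the lagging-strand enzyme, the catalytic subunit POLD1 fell by 0.17 and POLD2 by 0.13 on the log2 scale, while the accessory subunit POLD3 rose by 0.44. POLD3 had 6.45, 5.47 and 6.03 FPKM in Hep3B-Con and 8.49, 8.26 and 7.68 FPKM in Hep3B-KD (standard error 0.0708, adjusted p = 0.00168). The fall of POLD2 was lost with quantile normalization (-0.015, adjusted p = 0.616). POLD4, the smallest subunit, was at 1.14 and 1.02 FPKM, with 40 to 73 reads per library, and its groups overlapped.

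The largest change of all 53 genes was in polymerase epsilon, the leading-strand enzyme. POLE4 (ENSG00000115350, GRCh38 chromosome 2, 74958492 to 74970128, plus strand), a small histone-fold subunit that binds POLE3, had 17.1, 17.5 and 16.5 FPKM in Hep3B-Con and 1.82, 2.26 and 1.85 FPKM in Hep3B-KD. The groups lay far apart, 8.30-fold on the scale of FPKM + 0.1, with a log2 fold change of -3.05 ± 0.0852 (SE, adjusted p = 8.94e-07). Reads per library went from 591 to 654 in Hep3B-Con to 62 to 78 in Hep3B-KD. POLE4 ranked 10 among the falls of all 14221 genes, and no exon base of it is shared with another gene. Its partner POLE3 had 41.3, 42.2 and 42.5 FPKM in Hep3B-Con and 33.2, 32.3 and 35.6 FPKM in Hep3B-KD, a log2 fold change of -0.32 ± 0.0385 (SE, adjusted p = 0.00042). The catalytic subunit POLE did not pass, at 15.9 ± 0.275 and 15.8 ± 0.226 FPKM, but was called lower with median centring (-0.11, adjusted p = 0.013) and with length bins (-0.27, adjusted p = 0.000222). POLE2 rose by 0.40 (log2), from 3.93 ± 0.117 to 5.25 ± 0.432 FPKM.

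**Figure D4:**
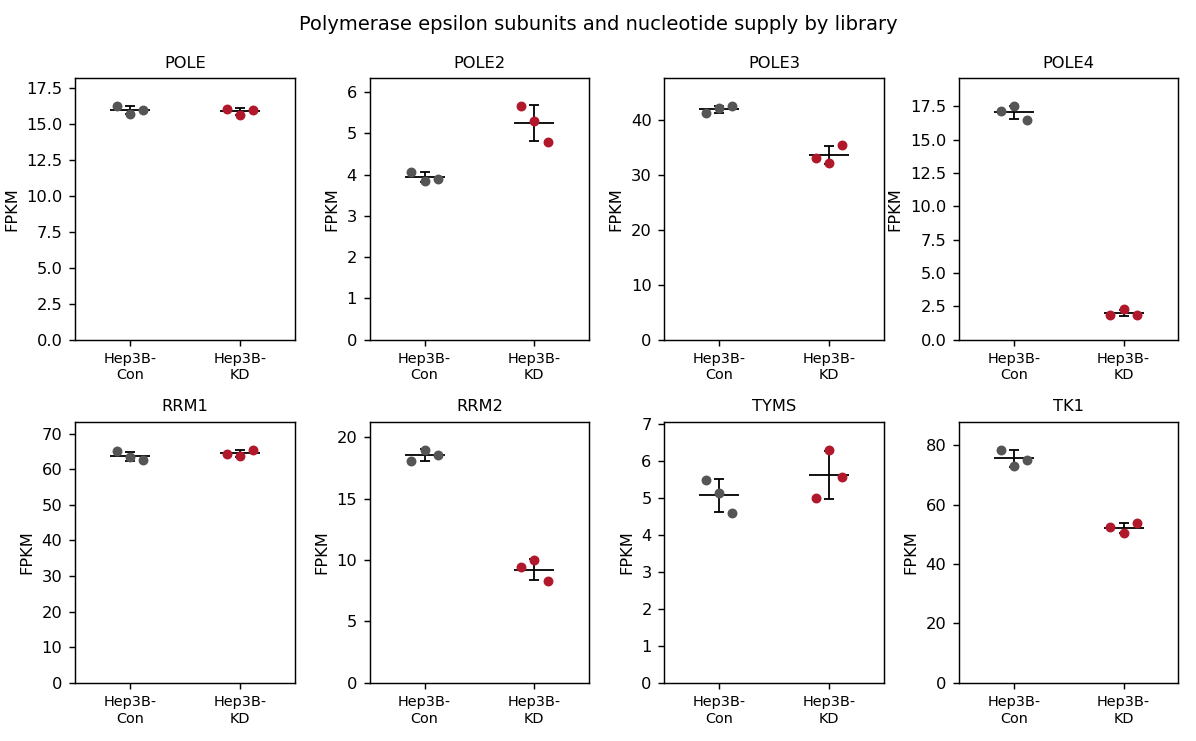
FPKM (y axis, from 0) of the 4 polymerase epsilon subunits (upper row) and of 4 genes of deoxynucleotide supply (lower row) in the 3 Hep3B-Con (grey) and 3 Hep3B-KD (red) libraries, with the mean and ± 1 SD. POLE4 falls from about 17.0 to 1.97 FPKM while the groups of POLE overlap, and RRM2 falls from 18.5 to 9.23 FPKM while those of RRM1 overlap.

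The transcript of POLE4 also holds matches to the seed of the hairpin. The target of the hairpin in DAGLA is 19 bases long, and the guide strand taken as its reverse complement is shown as DNA with its seed (bases 2 to 8) in capitals. The 3′ untranslated region of POLE4, 706 bases in GENCODE 29, holds the complement of that seed 3 times, at positions 25, 38 and 116; the seed match is in capitals in each window. The matches in RRM2 and PRIM1 are shown as examples from genes that fell. Those in CDT1 (position 790) and RPA1 (positions 255 and 949), which also fell, are not shown. Nor are those in WDHD1 and POLD3, which rose.
guide strand: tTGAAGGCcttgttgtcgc
POLE4, position 25: cagttttgtgaGCCTTCAtctgaagcctt
POLE4, position 38: cttcatctgaaGCCTTCAgttcacccctc
POLE4, position 116: cttcctgttctGCCTTCAcctatgccggg
RRM2, position 779: gggtgatctggGCCTTCAtatgtgtgaga
PRIM1, position 36: ggatatcttctGCCTTCAaccacagatca
The run of bases that pair with the guide around the seed was 7 at each of the 3 POLE4 sites and 8 in RRM2 and PRIM1.

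The seed match was about as frequent among the replication genes as elsewhere. It stood in 7 of the 53 (13.2%) and in 1628 of 11187 expressed genes with an annotated 3′ untranslated region (14.6%). Of the 7, POLE4, RRM2, PRIM1, CDT1 and RPA1 fell, and WDHD1 and POLD3 rose, a split that held under the 4 other scalings. Of the 46 without a match, 17 rose and 16 fell. Among all expressed genes, 39.3% of those with a match fell, against 25.8% of those without, and 8.23% against 2.18% fell by a fold of at least 2. Among the 63 genes with 3 or more matches the median change was -0.025 (log2), while genes without a match had 0.105. POLE4 was the lowest of the 63. A fall by a fold of at least 2 was seen in 7.57% of genes with 1 match, 11.5% with 2 and 12.7% with 3 or more. The share that fell by any amount did not rise in this way, at 39.4%, 40.3% and 33.3%. The sets were not matched for the length of the 3′ untranslated region, and no other 7-base sequence was searched for comparison. The part of the match in the level of any of these genes was not tested.

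The sliding clamp and its loader were mixed. PCNA, the clamp that tethers the polymerases, was the most abundant of the 53 genes, with 175, 179 and 173 FPKM in Hep3B-Con and 196, 207 and 197 FPKM in Hep3B-KD (log2 fold change 0.18 ± 0.0262 SE, adjusted p = 0.000949). Of the RFC subunits that load PCNA, RFC5 rose by 0.44 and RFC2 by 0.36 on the log2 scale. RFC3 went against them, from 20.8 ± 1.11 to 15.4 ± 0.646 FPKM, and fell by 0.43 (adjusted p = 0.000369). RFC1 and RFC4 did not pass, at -0.058 and -0.0076. With median centring both were called lower (-0.16, adjusted p = 0.0025, and -0.11, adjusted p = 0.00698), and RFC1 also with length bins (-0.19, adjusted p = 0.000967) and without Hep3B-Con replicate 1 (-0.080, adjusted p = 0.0447).

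The subunits of RPA, which coats single-stranded DNA as a trimer of RPA1, RPA2 and RPA3, also moved in opposite directions. RPA2, the subunit that checkpoint kinases phosphorylate, had 19.6, 19.1 and 19.6 FPKM in Hep3B-Con and 29.13, 29.02 and 28.95 FPKM in Hep3B-KD. Its log2 fold change of 0.58 ± 0.0235 (SE, adjusted p = 3.75e-06) was the largest rise among the 53 after MCM6. RPA3 rose by 0.37, from 8.002 ± 0.470 to 10.4 ± 0.580 FPKM. RPA1, the main DNA-binding subunit, had 70.6, 71.9 and 71.9 FPKM in Hep3B-Con and 61.0, 61.3 and 60.2 FPKM in Hep3B-KD, a log2 fold change of -0.23 ± 0.0183 (SE, adjusted p = 5.63e-05).

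Of the enzymes that finish Okazaki fragments, FEN1, the flap nuclease, had 104, 101 and 103 FPKM in Hep3B-Con and 76.9, 74.9 and 73.9 FPKM in Hep3B-KD (log2 fold change -0.45 ± 0.0212 SE, adjusted p = 6.76e-06). LIG1, which seals the nicks, rose by 0.21, a call lost with median centring (0.11, adjusted p = 0.0719) and with centring within bins of exon length (0.079, adjusted p = 0.167). The nuclease and helicase DNA2 was at 6.47 and 6.44 FPKM. Among the fork protection genes, WDHD1, which ties the helicase to polymerase alpha, rose by 0.47, from 3.53 ± 0.141 to 4.91 ± 0.256 FPKM, and CLSPN, which passes the checkpoint signal to CHEK1, rose by 0.32. TIMELESS fell by 0.28, from 34.3 ± 1.26 to 28.2 ± 0.671 FPKM, whereas its partner TIPIN did not pass (0.012, adjusted p = 0.863).

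In the supply of deoxynucleotides, RRM2 and TK1 fell, and RRM1 and TYMS did not pass. RRM2 (ENSG00000171848, GRCh38 chromosome 2, 10120698 to 10131419, plus strand), the small subunit of ribonucleotide reductase and the one made in S phase, had 18.05, 19.01 and 18.6 FPKM in Hep3B-Con and 9.43, 9.99 and 8.28 FPKM in Hep3B-KD. The groups did not overlap, and the log2 fold change was -1.002 ± 0.0694 (SE, adjusted p = 3.22e-05), just past a fold of 2; with single libraries left out it ranged from -1.06 to -0.93. Of its exon bases, 20.2% are shared with another gene. RRM1, the large subunit, had 65.1, 63.4 and 62.6 FPKM in Hep3B-Con and 64.3, 63.7 and 65.5 FPKM in Hep3B-KD, with overlapping groups (log2 fold change 0.019, adjusted p = 0.493). Its direction and call turned with the scaling, to 0.15 with quantile normalization (adjusted p = 0.000899) and to -0.084 with median centring (adjusted p = 0.0173). TK1, which salvages thymidine, had 78.6, 73.0 and 75.2 FPKM in Hep3B-Con and 52.6, 50.4 and 53.8 FPKM in Hep3B-KD, a log2 fold change of -0.53 ± 0.0363 (SE, adjusted p = 3.02e-05). TYMS, which makes thymidylate, was at 5.07 ± 0.446 and 5.62 ± 0.652 FPKM with overlapping groups; 46.6% of its exon bases lie in other genes, among them its antisense neighbour ENOSF1.

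The genes next to these in the replication programme were taken as a separate list of 54, of which 51 passed the filter on low values. Of the 51, 20 rose (39.2%) and 16 fell (31.4%), beside 36.1% and 23.8% of all genes tested. Their median log2 fold change was 0.054, against 0.11 for all genes. With median centring 11 rose and 20 fell, beside 28.6% and 30.3% of all genes. With centring within bins of exon length 13 rose and 17 fell, and the share of all genes was not computed. At a fold of at least 1.5, 7 of the 51 had risen and 2 had fallen, beside 16% and 7.97% of all genes tested. These counts are small, and their difference from all genes was not tested. CDC7, the kinase that activates loaded MCM2-7, had 6.35, 6.21 and 6.77 FPKM in Hep3B-Con and 10.6, 11.3 and 11.1 FPKM in Hep3B-KD (log2 fold change 0.76 ± 0.0481 SE, adjusted p = 2.11e-05). Its activator DBF4 did not pass (0.12, adjusted p = 0.194). TOPBP1, needed for helicase activation and for ATR, rose by 0.60, and the checkpoint kinase ATR rose by 0.70. The ATR activator ETAA1 had 1.40, 1.42 and 1.33 FPKM in Hep3B-Con and 2.88, 2.98 and 3.06 FPKM in Hep3B-KD, a log2 fold change of 1.05 ± 0.0725 (SE, adjusted p = 3.16e-05). RIF1, which restrains CDC7 at origins, rose by 0.83, ATAD5, which unloads PCNA, rose by 0.79, and CUL4B, a scaffold of the ligase that degrades CDT1, rose by 0.71. Those that had fallen at this fold were DSCC1, part of an alternative clamp loader, by 0.64, and NME1, a nucleoside diphosphate kinase, by 0.77.

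Further genes of nucleotide supply and licensing moved less. DTYMK, the thymidylate kinase, fell by 0.29 on the log2 scale. RRM2B, the small reductase subunit used outside S phase, had 4.11, 4.74 and 4.47 FPKM in Hep3B-Con and 5.13, 5.33 and 5.34 FPKM in Hep3B-KD, a log2 fold change of 0.24 ± 0.062 (SE, adjusted p = 0.0133). SAMHD1, which degrades deoxynucleotides, rose by 0.47. MCMBP, which binds MCM subunits outside the ring, fell by 0.29, and TICRR, which brings CDC45 to origins, fell by 0.34. RNASEH2A, RNASEH2B and TYMP were below the filter in the means of these libraries.

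For comparison, 3 of 24 mitotic genes rose (12.5%) and 18 fell (75%), beside 36.1% and 23.8% of all genes tested. Their median log2 fold change was -0.55, against 0.11 for all genes. This list was chosen with earlier results of these data known. It holds MAD2L1 and HJURP, which the study also singled out from these same libraries. The E2F family and its partners were mixed, with 4 of 15 tested genes up (26.7%) and 7 down (46.7%). E2F1, an activator of S phase genes, had 11.80, 12.04 and 13.5 FPKM in Hep3B-Con and 22.2, 22.7 and 22.8 FPKM in Hep3B-KD (log2 fold change 0.85 ± 0.0543 SE, adjusted p = 2.18e-05). CCNE1, the cyclin of S phase entry, rose by 0.82, CCNE2 by 0.67 and TFDP2 by 0.23. Other genes of the list fell: E2F3 by 0.33 (log2), from 37.1 to 29.6 FPKM, E2F7 by 0.73 and MYBL2 by 0.67. E2F4 (-0.51), E2F5 (-0.42) and RBL2 (-0.27) fell as well. E2F2 did not pass. TFDP1, the dimer partner of E2F proteins, had 135, 141 and 141 FPKM in Hep3B-Con and 68.2, 67.8 and 67.8 FPKM in Hep3B-KD, a log2 fold change of -1.03 ± 0.0225 (SE, adjusted p = 3.66e-07). RB1, which restrains the E2F activators, was below the filter, at 20 to 49 reads per library. Its means were 0.204 FPKM in Hep3B-Con and 0.454 FPKM in Hep3B-KD, without overlap.

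**Figure D5:**
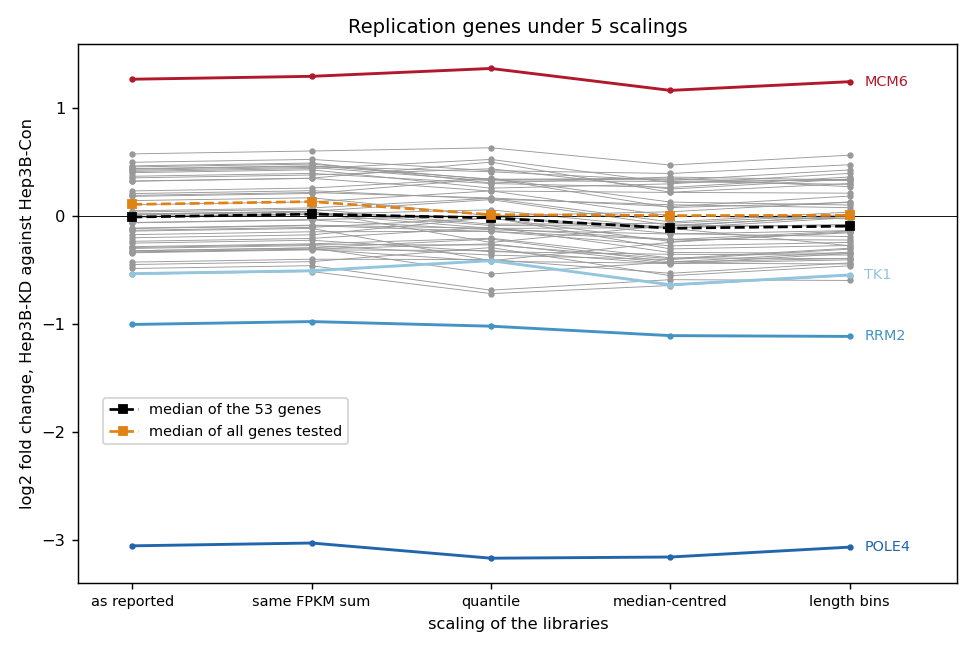
Log2 fold change (y axis, Hep3B-KD against Hep3B-Con) of each of the 53 genes (lines) under 5 scalings of the libraries (x axis), with the median of the 53 genes in black and that of all genes tested in orange. MCM6 stays above 1 and POLE4 near -3 throughout, RRM2 stays close to -1, and the median of the 53 genes moves between 0.019 and -0.11.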

How the data were processed

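RNA from 6 Hep3B samples was sequenced by the authors with an Illumina protocol. The authors deposited FPKM values, 1 column per library and 0 other value columns. The submitters' processing notes name TopHat2 2.0.12, Bowtie2 2.0.6 and GRCh37; with exon lengths of GENCODE 29 (GRCh38), however, 100% of the deposited FPKM values gave whole reads (within 0.01), so that annotation was used for names and coordinates. The counter, and whether it used strand, are not given in the sources used here. Reads in exons shared by genes may therefore be assigned to either.

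Values were tested as log2(FPKM + 0.1) with limma 3.58.1 (trend) in R 4.3.3 on 14221 genes whose mean reached 0.5 FPKM, with Benjamini-Hochberg adjustment; fold changes are on that scale and understate those of low genes. The fit was tested on simulated data. Alternatives were other filters, pseudocounts, scalings and variance models, voom on the recovered reads, a replicate block and single libraries left out. The members and lists were chosen with earlier results of these data known. All 53 genes could be named; of the other replication genes, those past a fold of 1.5 with an adjusted p under 0.05 and those of nucleotide supply or licensing. E2F genes were named after their values were seen. Promoters, 1 per gene, came from RefSeq (GRCh38.p14), and the hairpin target from the study's oligonucleotide list. Depth intervals cover counting error only. Tables were handled in Python 3.11.15 with pandas 2.3.3.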

Additional observations from a re-analysis of the deposited data

How the results depend on the processing

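Of the 40 called genes among the 53, 33 kept their direction and call in all 18 alternatives, and the other 7 (ORC2, GINS2, GINS3, MCM4, MCM7, POLD2, LIG1) lost the call in at least 1. The median log2 fold change of the 53 was 0.019 with libraries rescaled to the same FPKM sum, -0.11 with median centring, -0.092 with centring within bins of exon length, and -0.022 to 0.0031 with single libraries left out (positive without Hep3B-KD replicate 2). The MCM6 contrast was 1.05 with quantile normalization and 1.15 with length bins. The count of other replication genes that rose was 11 with median centring and 13 with length bins, and that with a fold of at least 2 was 0 with a pseudocount of 1, median centring, quantile normalization and length bins, against 1. Of the 13 genes that did not pass, ORC6, GINS1, GMNN, POLE, RFC1, RFC4 and RRM1 were called in at least 1 alternative. Changes of sign were as follows. With the same FPKM sum POLE was at 0.018, RFC4 at 0.019 and DNA2 at 0.023. With median centring ORC5 was at -0.065, GMNN at -0.053, POLA2 at -0.084, TIPIN at -0.092 and RRM1 at -0.084, which then passed. With quantile normalization ORC5 was at -0.074, POLA2 at -0.24, RFC1 at 0.0023, RFC4 at 0.059 and TIPIN at -0.086. With length bins POLA2 was at -0.092 and RRM1 at -0.0035, and the called MCM4 at -0.024. With single libraries left out POLE ranged from -0.022 to 0.0031, TIPIN from -0.011 to 0.056, POLA2 from -0.13 to 0.14, DNA2 from -0.039 to 0.065, ORC5 from -0.018 to 0.11 and POLD4 from -0.29 to 0.00026. The cause of these shifts was not tested. Same-numbered samples did not deviate together over all genes tested (correlations of -0.013, -0.066 and -0.0011). Whether they were prepared together cannot be settled this way, because a batch limited to some genes would barely move these correlations. With the replicate number as a block 19 of the 53 rose and 19 fell. At 40 to 73 reads, as for POLD4, only larger changes could be detected.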
